A study of Caenorhabditis elegans with 2 samples.

Results

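The nuclear hormone receptor genes of Caenorhabditis elegans were examined as binding sites of MXL-3. They were taken as the protein-coding genes named nhr- followed by a number, without nhr-10, nhr-13, nhr-49, nhr-68, nhr-80 and nhr-114, which gave 263 of 19973 protein-coding genes. The binding data came from chromatin immunoprecipitation sequencing with an anti-GFP antibody in whole L4 larvae, 48 hours old and of both sexes together, in 2 biological replicates of 1 group. All animals were of strain OP745, in which the transgene wgIs745 supplies mxl-3::TY1::EGFP::3xFLAG and a rescuing unc-119(+) copy on an unc-119 (tm4063) background, and all had been bleached and held as starved L1 larvae to bring them into step. It is 1 transgenic line whose genotype lists no mutation of mxl-3 itself, and whole animals do not tell in which tissue a site was bound. There was no second genotype or treatment, so receptor genes were compared with other genes of the same genome and nothing was tested between samples. A gene was taken as bound where the summit of a peak on the authors' list that passed the irreproducible discovery rate (IDR) threshold fell in its promoter window, which here spans the 1000 bp before and the 200 bp after each annotated transcript start. That list held 3935 peaks. The signal value quoted for a peak is the authors' own, has no stated scale and is used here to order peaks within 1 list. Read totals were not used, so the depth behind a peak is unknown.

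Nuclear hormone receptors are transcription factors with a zinc finger DNA-binding domain and a pocket that in many of them holds a lipid, steroid or other small hydrophobic ligand. Nematodes carry a greatly expanded family, most of it derived from an ancestor related to vertebrate HNF4, beside a small set of genes conserved with insects and vertebrates. Members with known roles in worms act in moulting, developmental timing, fat metabolism, diet responses and detoxification. MXL-3 is a basic helix-loop-helix leucine zipper factor of the Max family, known in the worm as a nutrient-sensitive repressor of lysosomal lipase genes, and factors of this family recognise the E-box CACGTG.

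The strongest promoter sites of the receptor genes fell into those with CACGTG and those without it, and the sequences below show both kinds. They were read from the RefSeq WBcel235 genome, which carries the same sequence as the ce11 assembly of the peak lists, and are written 5′ to 3′ on the strand of the gene, with each E-box (CANNTG) in capitals. The first pair is centred on strong receptor promoter summits that lacked CACGTG, at chrX:17513658-17513758 (plus strand) and chrII:2800990-2801090 (minus strand).
nhr-1: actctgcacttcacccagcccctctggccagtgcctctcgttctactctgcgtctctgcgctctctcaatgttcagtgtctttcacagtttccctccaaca
nhr-119: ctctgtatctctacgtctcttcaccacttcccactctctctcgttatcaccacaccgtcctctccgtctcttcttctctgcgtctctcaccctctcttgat
Neither window held an E-box. The next 4 are centred on summits with CACGTG, at chrV:7093845-7094045 (minus strand), chrX:13251574-13251674 (plus strand), chrV:15774091-15774191 (minus strand) and chrII:7339105-7339205 (plus strand), and the first of these is longer so that it takes in the site.
nhr-135: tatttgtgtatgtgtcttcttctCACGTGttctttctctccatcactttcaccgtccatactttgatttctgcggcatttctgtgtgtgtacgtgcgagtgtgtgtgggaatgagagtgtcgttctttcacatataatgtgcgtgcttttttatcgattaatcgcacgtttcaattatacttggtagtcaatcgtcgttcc
nhr-32: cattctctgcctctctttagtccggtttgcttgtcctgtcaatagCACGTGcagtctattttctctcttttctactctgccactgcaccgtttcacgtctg
nhr-60: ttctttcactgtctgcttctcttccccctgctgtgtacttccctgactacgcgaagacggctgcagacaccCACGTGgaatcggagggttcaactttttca
nhr-21: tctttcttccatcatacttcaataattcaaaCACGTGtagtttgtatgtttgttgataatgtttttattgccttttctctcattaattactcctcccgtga
At nhr-32 the hexamer lay 2 bp from the summit, at nhr-21 16 bp, at nhr-60 23 bp and at nhr-135 74 bp. The remaining CACGTG sites at receptor promoters are given with 7 bases on either side, and in these CACGTG alone is in capitals.
nhr-133: gttctttCACGTGttttatg
nhr-31: ttcttcaCACGTGgtttttt
nhr-87: ttaccccCACGTGactactt
nhr-104: tatttctCACGTGgaaaaca
nhr-42: aagaaagCACGTGcaattgc
nhr-99: taatgttCACGTGctctcaa
nhr-34: gaaagacCACGTGatgtaac
These hexamers begin at V 2212092, IV 8030405, IV 1623871, IV 4788516, V 6998706, V 474715 and IV 9672688, in the order shown.

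Of the 263 receptor genes 44 were bound (16.7%, exact 95% interval 12.4 to 21.8%), beside 11.3% of all protein-coding genes. These genes had 48 distinct peaks, with 5 genes (nhr-66, nhr-31, nhr-34, nhr-19 and nhr-85) holding a pair of promoter summits each. Signal values ran from 91.3 to 929.9 with a median of 137, and the median over the 1993 promoter peaks of all genes was 140.1. Of the 48 peaks 12 (25%) were among the 983 strongest of the list, beside 27.5% of all promoter peaks. The medians were close, and a single receptor site stood far above the rest. These intervals, like all those below, cover counting error only and treat genes or peaks as independent.

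**Figure D1:**
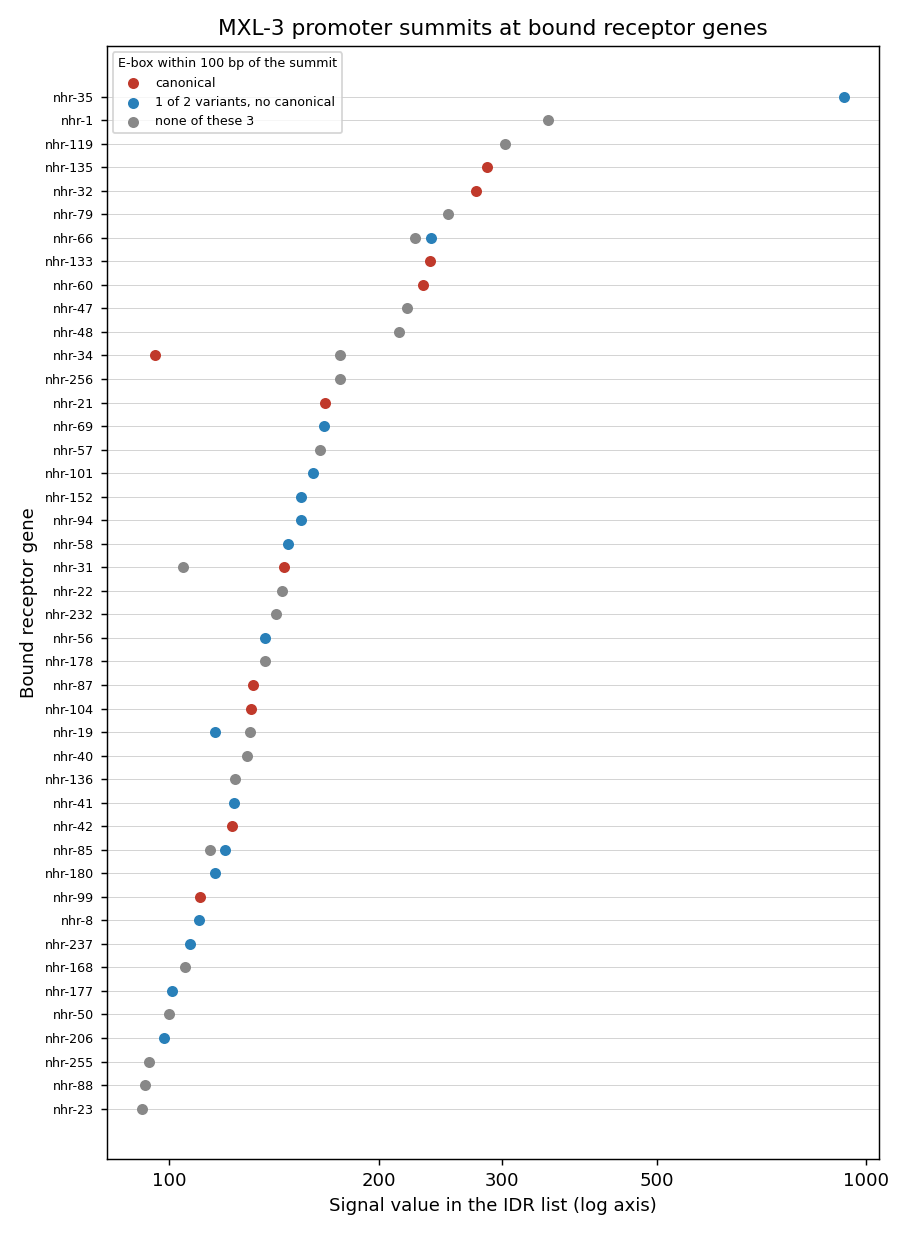
Signal value in the IDR list (log axis) of every promoter summit at the 44 bound receptor genes, ordered by each gene's strongest summit and coloured by the E-box within 100 bp (canonical is CACGTG, the variants are CACATG and CAAGTG). nhr-35 stands alone at 929.9, the next gene is at 349.5, and summits with the canonical E-box lie between 95.3 and 286.

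The site at nhr-35 led by a wide margin in each replicate. Its summit on X, upstream of a start, had a signal of 929.9 and ranked 20 in the IDR list. In the replicates' own lists the same site had signals of 407 (rank 17) and 519 (rank 20). nhr-1 followed on X (summit 17513708, -355 bp) at 349.5 with 145 and 205 in replicates 1 and 2. nhr-119 on II (2801040, -440 bp) had 303, with 136 and 165. Neither replicate placed any other receptor promoter above nhr-35, and the gap to nhr-1 was larger than that between nhr-1 and the genes behind it.

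The next sites lay close together in signal. nhr-135 had a peak of 286 (summit V 7093945, -175 bp), with 138 and 162 in the replicates. nhr-32 had 275 (X 13251624, -340 bp), with 119 and 163. nhr-79 had 251 (V 19212524, -629 bp), with 127 and 123. The replicates did not order these 3 genes alike: nhr-135 was above nhr-32 in replicate 1 and just below it in replicate 2, and nhr-79 was between them in replicate 1. nhr-133 followed at 236 (V 2212117, 1 bp inside the gene), nhr-60 at 231 (V 15774141, -900 bp) and nhr-47 at 219 (V 5505257, 4 bp inside). Replicate signals were 110.4 and 124 for nhr-133, 99.8 and 130.1 for nhr-60, and 99.8 and 116 for nhr-47. The peak of nhr-47 also counted for dnj-19, a DnaJ chaperone gene. Among the 15 strongest genes were also nhr-66, nhr-48, nhr-69, nhr-34 (175.8), nhr-256 (175) and nhr-21 (167), the last with 59.99 in replicate 1 and 109 in replicate 2.

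Among a list of 11 nhr- genes conserved with insects or vertebrates, 5 were bound (45.5%, 16.7 to 76.6%), beside 11.3% of all protein-coding genes. The list was drawn up with earlier results of these data known and leaves out receptor genes with other names. Its share is therefore a description only. A single start was annotated for 27.3% of the list and for 72.6% of all genes, and genes with more starts were bound at higher shares (17.0% of all genes with 2 or 3 starts, 25.9% with 4 or more). nhr-48, a relative of the steroid receptor gene daf-12, had the strongest site at 213 (X 15707630, -583 bp), with 77.4 and 142 in the replicates. nhr-41, related to Drosophila Hr78, had 124 (IV 1388308, -348 bp from an internal start). nhr-85, the E75 and Rev-erb relative that takes part in developmental timing, had 120.1 in an intron (-934 bp from an internal start). The other summit of nhr-85 had 114.3 (-761 bp from the most upstream start). nhr-8, known for xenobiotic resistance and cholesterol balance, had 110.2 (IV 7711043, 55 bp inside), with replicate ranks of 2846 and 3119. nhr-23, the Hr3 and ROR relative required for moulting, had the lowest promoter signal of any bound receptor gene, 91.3 (rank 3923), and its replicate ranks were 2691 and 7668. The summit of nhr-23 was also at an internal start. Neither nhr-41 nor nhr-23 was bound when only the most upstream start was used. The summit at nhr-41 lay 21 bp from a tRNA gene, and 71.7% of the 36-base words around it occurred once in the genome. Its part in the result was not tested.

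The other 6 conserved genes had no IDR summit in their promoter window. They were nhr-25, the Ftz-F1 relative that acts in moulting and epidermis, nhr-6, a NR4A relative, nhr-67, related to tailless, and nhr-91, nhr-111 and nhr-239. The pooled list, which holds 30000 peaks with background among them, had a summit at nhr-25 with a signal of 77.7 (rank 5061) and at nhr-239 with 69.6 (rank 6070). An IDR peak was assigned to nhr-25 when the window reached 2000 bp upstream or peaks went to the nearest start, and to nhr-91 under the latter rule. nhr-91 also had an internal IDR summit of 136 (rank 2031). In the pooled list nhr-6 and nhr-91 had promoter ranks of 16575 and 15143, and nhr-67 and nhr-111 had no promoter summit in it.

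Of 12 receptor genes picked for a known role in fat, diet, stress, xenobiotic, iron, excretory or muscle biology, 5 were bound (41.7%, 15.2 to 72.3%, all genes 11.3%). A single start was annotated for 41.7% of this list, which was also drawn up with earlier results of these data known. nhr-66, which works with NHR-49 in lipid metabolism, had summits of 238 and 225 on IV (8232697 and 8229713), at -859 and -136 bp from different internal starts. In the replicates these had 106 and 128, and 102 and 122, so both sites were of nearly equal height. nhr-69, an HNF4 relative with a role in insulin secretion, had 167 (-771 bp), with 74.8 and 102. nhr-57, a gene induced by low oxygen through HIF-1, had 164 (V 4131764, -125 bp), with 69.4 and 92.5. nhr-31, which controls vacuolar ATPase genes in the excretory cell, had 146 (IV 8030322, -809 bp). Its other summit, in an intron, had 104.6 (IV 8026619, -582 bp from an internal start). nhr-40, needed for normal muscle and body form, had 129 (X 2598912, -496 bp from an internal start). With the most upstream start alone nhr-66 and nhr-40 were not bound. nhr-14, nhr-45, nhr-62, nhr-64, nhr-76, nhr-86 and nhr-176 were without an IDR promoter summit. Of these nhr-62, which acts in lifespan extension by dietary restriction, came nearest at rank 5914 of the pooled list. Outside both lists 34 of 240 receptor genes were bound (14.2%, 10.01 to 19.2%), of which set 65.8% had a single start. Genes with a symbol number up to 100 were bound at 28 of 90 (31.1%, 21.8 to 41.7%) and those with a higher number at 16 of 173 (9.25%, 5.38 to 14.6%), with 11.3% for all genes. A single start was annotated for 50% of the former and 69.9% of the latter, and the part of this in the difference was not tested.

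Receptor genes outside the naming scheme gave 1 bound gene of 5. daf-12, which encodes the steroid receptor that governs dauer formation, had a summit of 92.6 (rank 3833, X 10664305) at -101 bp from an internal start. fax-1, odr-7, sex-1 and unc-55 had none.

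Chromosome V carried 164 of the 263 receptor genes (62.4%), beside 25% of all protein-coding genes, and 23 of the 44 bound ones (52.3%). The share bound on V was 14% (9.10 to 20.3%), with 8.85% for all genes there. On II 5 of 15 receptor genes were bound (33.3%, 11.8 to 61.6%, all genes 10.6%), on IV 7 of 33 (21.2%, 8.98 to 38.9%, all genes 9.36%) and on X 6 of 23 (26.1%, 10.2 to 48.4%, all genes 17.1%). On I the count was 3 of 22 (13.6%, 2.91 to 34.9%, all genes 11.9%). On III it was 0 of 6, which allows a share of up to 45.9%, where all genes stood at 12.7%. The intervals for I, III, IV and X each took in the share of all genes on that chromosome, while those for II and V began above it.

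Genes with more annotated starts have more promoter window, and the receptor genes had more starts than other genes. A single start was annotated for 63.1% of receptor genes and for 72.6% of all genes. With 1 start, 15 of 166 receptor genes were bound (9.04%, 5.15 to 14.5%), beside 8.57% of all such genes. With 2 or 3 starts it was 20 of 78 (25.6%, 16.4 to 36.8%, all genes 17.0%) and with 4 or more it was 9 of 19 (47.4%, 24.4 to 71.1%, all genes 25.9%). The single-start shares were close, and the larger gaps were among genes with several starts, where both intervals still took in the share of all such genes. None of these differences was tested. Pairs of gene and summit, over the windows summed gene by gene, came to 124 per Mb for receptor genes and 82.9 for all genes. On V the values were 101 and 66.2. A shared peak, or sequence shared by the windows of neighbouring genes, counted once for each gene.

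**Figure D2:**
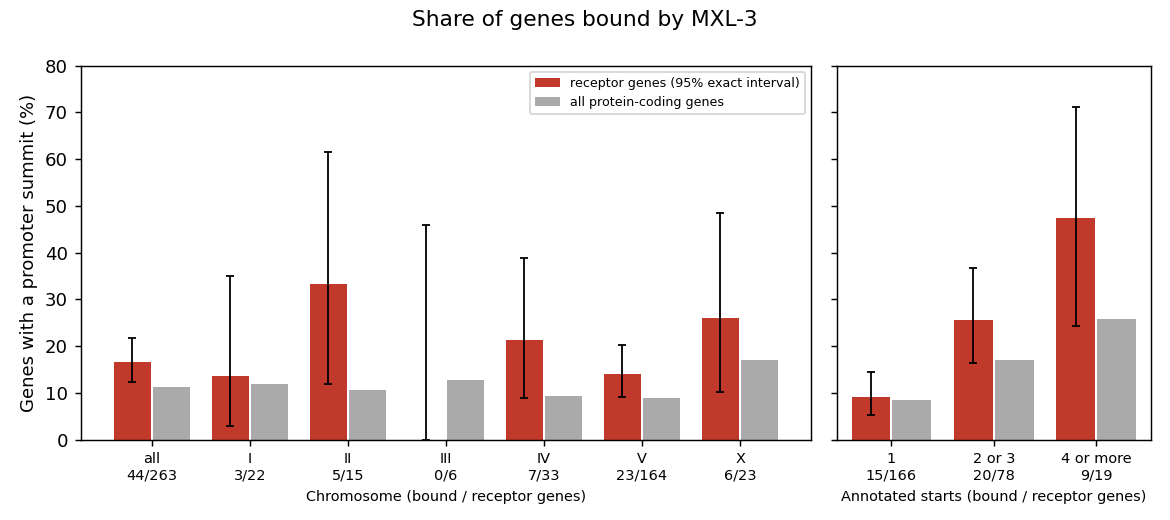
Percentage of genes with an MXL-3 promoter summit, for receptor genes (red bars, with exact 95% intervals) and all protein-coding genes (grey), by chromosome on the left and by the number of annotated starts on the right. With 1 start the bars are at 9.04 and 8.57%, and with 4 or more at 47.4 and 25.9%.

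Most receptor genes lie beside others of the family, and the bound share was 9.46% in such clusters and 26.1% outside them. Runs of 3 or more receptor genes whose neighbouring starts were at most 50 kb apart numbered 24 and held 148 of the genes. Of these clusters 16 lay on V and 37 of the genes were on other chromosomes. In clusters 14 of 148 genes were bound (9.46%, 5.27 to 15.4%) and outside them 30 of 115 (26.1%, 18.3 to 35.1%), intervals that do not overlap, though the difference itself was not tested. The share of all protein-coding genes, 11.3%, lay inside the interval for clustered genes and below that for the others. The order was the same on V, at 12 bound genes (10.8%) and 11 (20.8%), and on the other chromosomes, at 2 of 37 (5.41%) and 19 of 62 (30.6%). It also held among single-start genes, at 6.93 and 12.3% with overlapping intervals (2.83 to 13.8% and 5.47 to 22.8%), and among genes with more starts, at 14.9 and 44% (6.20 to 28.3% and 29.99 to 58.7%). With gaps of at most 20 kb the shares were 9.30 and 23.9%, and with 100 kb 9.25 and 31.1%.

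Near-identical copies can share reads, so uniqueness was counted in the promoter window of each gene's most upstream start. Windows at other starts were not scored. nhr-41 thus counted as 100% unique, though its summit, near another start, lay in sequence of which 71.7% of words were unique. Receptor genes with under 90% of the 36-base words of that window found once in the genome numbered 33, 22 of them in clusters. Of the 33 genes 1 was bound (3.03%), beside 5.45% of all such genes. Among receptor genes with at least 90% unique words, 13 of 126 clustered genes (10.3%, 5.61 to 17.0%) and 30 of 104 others (28.8%, 20.4 to 38.6%) were bound.

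No bound gene was found in 15 of the 24 clusters. The longest run on V, 19 genes from nhr-254 to nhr-155 (392628 to 541485), held 2 bound genes, nhr-99 (110.8, -16 bp) and nhr-58 (148, -72 bp). The second, 18 genes from 2210510 to 2296977, also held 2, nhr-133 at 236 and nhr-56 at 137. A run of 10 genes on V (3844429 to 3908452), one of 8 (15674007 to 15702363) and one of 7 on I (12327982 to 12443780) held 0. The most bound genes in 1 cluster were 3 of 7 on V between 1603906 and 1629432, namely nhr-178 (137), nhr-237 (107) and nhr-177 (101), which all had summits of their own. Both bound genes of a further run of 7 (V 12092006 to 12109313) stood at its ends, nhr-206 (98.1) and nhr-136 (124). Single bound genes of clusters were nhr-60 (231), nhr-34 (175.8), nhr-87 (132), nhr-42 (123) and nhr-180 (116). The summit at nhr-87 lay in sequence of which 64.5% of words were unique. Adjacent members of 1 cluster thus differed in whether they had a summit, and no cluster was bound throughout.

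**Figure D3:**
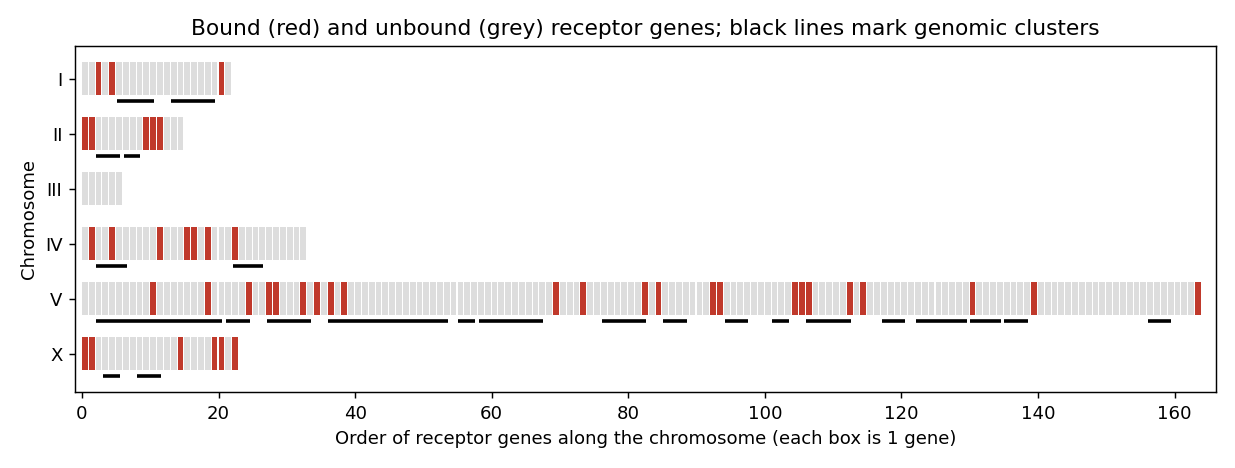
The 263 receptor genes in their order along each chromosome, bound genes in red and unbound genes in grey, with black lines under the runs that form clusters. Of the 24 clusters 16 lie on V, and 30 of the 44 bound genes stand outside any cluster.

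The bound share was higher in the middle of the chromosomes than towards their ends, for receptor genes and for all genes. With each chromosome cut into 3 equal parts, 18 of 69 receptor genes of the middle were bound (26.1%, 16.3 to 38.1%, all genes 14%), and 26 of 194 outside it (13.4%, 8.95 to 19%, all genes 9.65%). On V the shares were 9 of 40 (22.5%, 10.8 to 38.5%) in the middle and 14 of 124 (11.3%, 6.31 to 18.2%) outside it, with 13.6 and 6.20% for all genes.

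Both replicates held nearly all of these sites. The IDR threshold selects peaks for reproducibility and each replicate list held 30000 peaks. Matches were therefore largely set in advance and are no separate evidence of replication. Of the 48 peaks, 47 had a summit within 100 bp in replicate 1 and 48 in replicate 2, and the exception was the summit of nhr-85 at -934 bp. Signals at these peaks ran from 33.5 to 407 (median 62.5) in replicate 1 and from 32 to 519 (median 80.8) in replicate 2. When each replicate's list was taken to the length of the IDR list, 38 peaks were in both, 5 in replicate 1 only, 5 in replicate 2 only and 0 in neither. nhr-88 (92.1) had 58.6 in replicate 1 and 32 (rank 10392) in replicate 2, and nhr-237 had 61.9 and 43.5. In the other direction nhr-50 had 33.5 and 66.4, and nhr-168 had 36.1 and 73.9. Uneven sites were found at middle signals too, such as nhr-48 and nhr-21.

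**Figure D4:**
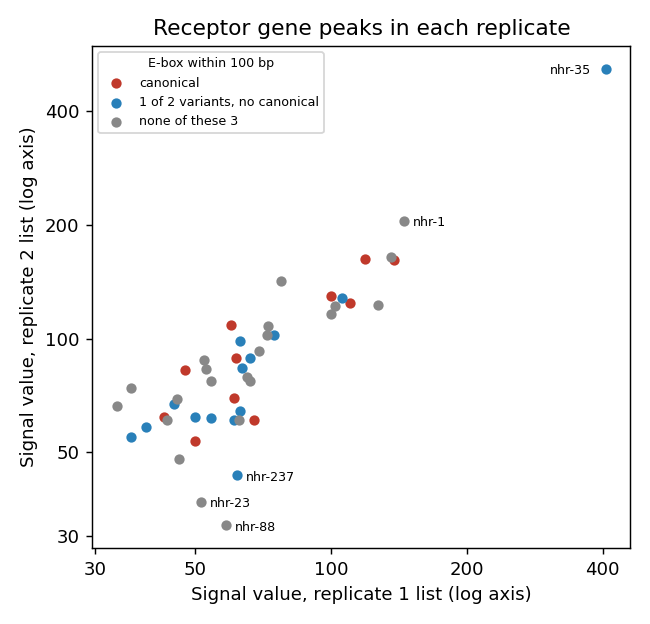
Signal value of each receptor promoter peak in the replicate 1 list against the replicate 2 list (both axes logarithmic), for the 47 peaks found in both. nhr-35 is highest in both lists at 407 and 519, while nhr-88 and nhr-23 are low in replicate 2 at 32 and 37.0.

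Several kinds of E-box were present at a higher share of receptor summits than of windows 500 bp away. CACGTG lay within 100 bp of 11 of the 48 summits (22.9%, 12.0 to 37.3%), beside 14.6% of all promoter peaks, and in 2.08% of the 96 windows at 500 bp on either side. CACATG was present at 10 (20.8%, 10.5 to 35%, all promoter peaks 15.4%) and in 4.17% of flanks. CAAGTG was present at 7 (14.6%, 6.07 to 27.8%, all 13.1%) and in 6.25% of flanks. The flanks of all promoter peaks held CACGTG at 3.66%, CACATG at 6.52% and CAAGTG at 7.10%. At least 1 of these 3 hexamers was present at 26 summits (54.2%, 39.2 to 68.6%), beside 37.9% of all promoter peaks. All motifs were read on both strands.

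The other classes stood on either side of the promoter peaks at large. CACCTG was present at 8 summits (16.7%, 7.48 to 30.2%), beside 5.37% of all promoter peaks and 2.08% of flanks. CAAATG, the most frequent, was present at 13 (27.1%, 15.3 to 41.8%), beside 15.6 and 11.5%. In the flanks of all promoter peaks CACCTG stood at 4.82% and CAAATG at 16.1%. CAGCTG was at 0 of 48 (up to 7.40%), beside 6.02% of promoter peaks, and CAGATG at 1 (2.08%, 0.0527 to 11.1%), beside 8.58%. The remaining classes were closer, with CAACTG at 12.5% (all promoter peaks 10.9%), CAATTG at 12.5% (9.08%) and CATATG at 6.25% (3.16%). Any E-box was found at 34 summits (70.8%, 55.9 to 83.0%), at 66.4% of promoter peaks and in 35.4% of flanks. The flanks of all promoter peaks held one at 54.1%, so the receptor flanks were lower than those at large. With 10 classes read over 48 peaks these shares are a description and none was tested.

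The 11 peaks with CACGTG were nhr-135, nhr-32, nhr-133, nhr-60, nhr-21, nhr-31, nhr-87, nhr-104, nhr-42, nhr-99 and the lower peak of nhr-34. The hexamer lay a median of 23 bp from the summit, from 2 to 85 bp. Signals with CACGTG had a median of 146 (95.3 to 286) and those without a median of 137 (91.3 to 929.9), while over all promoter peaks the medians were 177 and 137. None of the 3 strongest promoter sites of the 263 genes carried CACGTG. Promoter windows of receptor genes held CACGTG anywhere in 58 of 263 cases (22.1%, all genes 21.5%), and 20 of those 58 genes were bound (34.5%, 22.5 to 48.1%, all such genes 17.5%). Of the 205 without it 24 were bound (11.7%, 7.65 to 16.9%, all such genes 9.63%). Genes with more starts have more window in which to hold the hexamer or a summit. With a single start, 7 of 32 genes with CACGTG were bound (21.9%, 9.28 to 39.97%, all such genes 12.6%). Of single-start genes without it, 8 of 134 were bound (5.97%, 2.61 to 11.4%, all such genes 7.69%). None of these differences was tested.

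Pyrimidine runs were visible in the sequences of nhr-119 and nhr-1, and 2 motifs were counted after these had been seen. CTCTCT, read on both strands as CTCTCT or AGAGAG, was within 100 bp of 22 of 48 summits (45.8%, 31.4 to 60.8%), beside 35.5% of all promoter peaks and 8.33% of flanks. TGCGTC, or GACGCA on the other strand, was at 13 (27.1%, 15.3 to 41.8%), beside 22.4% of promoter peaks and 0 of 96 flanks. The flanks of all promoter peaks held CTCTCT at 8.28% and TGCGTC at 3.89%. Both counts include nhr-119 and nhr-1, where the motifs were first seen, so that part was set in advance. Among the 37 receptor peaks without CACGTG the shares were 45.9 and 27%. Summit windows of the receptor genes held a median of 41.5% G or C and their flanks 30.5%, while over all promoter peaks these were 44.3 and 35.1%.

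Receptor summits sat close to the start. The median distance was -125 bp, beside -251 bp for all pairs of gene and peak, and 29 of 49 pairs (59.2%, 44.2 to 73.0%) were within 200 bp of a start, beside 41.8%. Within the first 100 bp upstream lay 17 (34.7%, 21.7 to 49.6%, all pairs 15.9%). Distance was taken to the closest annotated start of the gene, so more starts make for shorter distances. A single start was annotated for 15 of the 44 bound receptor genes and for 1242 of the 2259 bound genes of any kind. The part of this in the difference was not tested. By annotation 30 of the 48 summits were intergenic (62.5%, all promoter peaks 62.9%), 10 in a 5′ UTR (20.8%, 10.5 to 35%, all 8.08%), 6 in an intron, 1 in coding sequence and 1 in another exon. Only 3 of the 48 peaks served more than 1 protein-coding gene (6.25%), beside 20.02% of all promoter peaks. The divergent pair nhr-94 and nhr-152 shared 1 summit of 155 (V 7686370, -35 and -12 bp), the nhr-47 peak was shared with dnj-19, and that of nhr-101 (161) with the mismatch repair gene pms-2. For each of the 48 peaks the nearest start of a protein-coding gene belonged to a receptor gene, and starts of other kinds of gene were not read. Summits within 250 bp of a tRNA gene numbered 2 (4.17%, all promoter peaks 2.31%), at nhr-41 and at nhr-255 (93.5).

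Inside the genes, away from promoter windows, 20 of 263 receptor genes (7.60%, 4.71 to 11.5%) had an IDR summit, beside 3.52% of all protein-coding genes, and 11 of the 20 had none at the promoter. Receptor genes had a median length of 2284 bp and all genes of 2027 bp. The strongest of all lay in nhr-19, and this gene and nhr-27 were picked out after their values had been seen. nhr-19 (II 9598180 to 9605526, minus strand) had 7 summits in and just upstream of it. The intronic summit at 9601319 had a signal of 934 (rank 19), above every promoter summit of the 263 receptor genes. Its nearest annotated start of a protein-coding gene was that of mrpl-53, at 3697 bp. The summit at 9603656 had 639 (rank 57) with CACGTG. The other 5 summits of nhr-19, 2 of them in promoter windows, were between 107 and 131. nhr-27, a gene of 102756 bp on X, had no promoter summit and 3 intronic ones of 630.0 (rank 59, with CACGTG), 263 and 212 (with CACGTG). The nearest protein-coding start to the first of these belonged to cept-1, at -2283 bp.

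**Figure D5:**
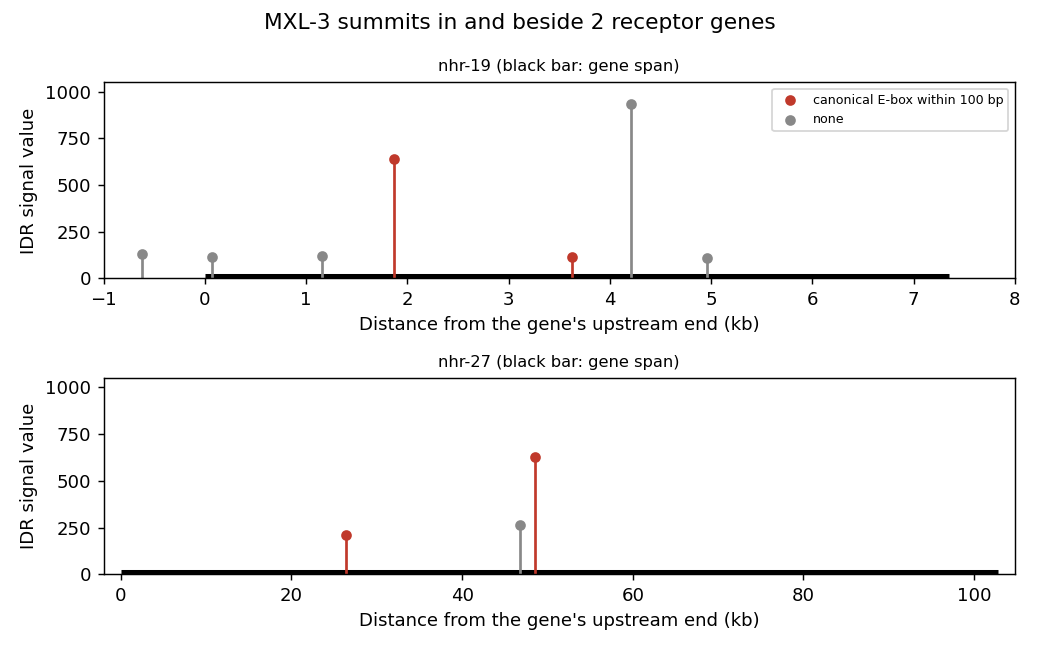
IDR signal value of each summit in and within 1000 bp of nhr-19 (top) and nhr-27 (bottom) against the distance in kb from the upstream end of the gene, whose span is the black bar. The highest summit of nhr-19 reaches 934 deep in the gene while its promoter summits are at 116 and 131, and the summits of nhr-27 are all internal.

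Several bound genes had a stronger site inside the gene but outside its promoter windows than within those windows. nhr-31 had a summit of 348 (rank 308, with CACGTG) against 146 at its promoter. That stronger summit lay in an exon annotated as neither coding nor UTR, which need not be an exon of nhr-31. nhr-34 had 278 in an intron against 175.8, and nhr-48 had 246 against 213. nhr-23, the moulting regulator with the lowest promoter signal, had 232 (rank 754) against 91.3. The promoter-window summits of nhr-34 and nhr-23 also lay inside the gene, at internal starts. Neither gene was bound with the most upstream start alone. Unbound receptor genes with an internal summit included nhr-120 (188), nhr-76 (184, with CACGTG) and nhr-17 (175), whose summit was 35 bp from a tRNA gene.

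The threshold passed through a continuous series of values. Just inside it were nhr-255 (93.5), nhr-88 (92.1) and nhr-23 (91.3). Just outside, in the pooled list, came nhr-228 (89.2, rank 4078), nhr-120 (88.1), nhr-202 (87.1), nhr-207 (85.3) and nhr-142 (83.6). Of the 219 unbound receptor genes 84 (38.4%, 31.9 to 45.1%) had some promoter summit in the pooled list, beside 33.4% of unbound genes in general, and 24 (11.0%, 7.15 to 15.9%) had one ranked 7870 or higher, beside 8%.

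Under every other setting the receptor genes were bound at a higher share than all genes. In the stronger part of the IDR list (1967 peaks) 8.75% of receptor genes were bound and 5.99% of all genes, and in the first 7870 peaks of the pooled list 25.9 and 18.4%. With replicate 1 alone the shares were 17.1 and 10.6%, and with replicate 2 alone 16.0 and 11.4%. A window of 500 bp upstream to 100 bp downstream gave 13.3 and 8.55%, and one of 2000 bp upstream to 200 bp downstream 20.5 and 15.2%. Assigning peaks to the nearest start within 2000 bp gave 20.5 and 12.4%, and the most upstream start alone 14.8 and 10.1%. Of the 44 bound genes, 15 were bound under all 8 of these settings, among them nhr-35, nhr-1, nhr-119, nhr-135, nhr-32, nhr-133, nhr-47, nhr-256, nhr-21, nhr-57 and nhr-58. For single-start genes alone the shares were closer, at 10.8 and 7.95% with replicate 1 alone, and the order turned with replicate 2 alone, at 7.83 and 8.64%.

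Other named families gave lower shares than the receptor genes, and all protein-coding genes stood at 11.3%. Basic helix-loop-helix genes named hlh- were bound at 2 of 25 (8%, 0.984 to 26%), homeobox genes named ceh- at 3 of 63 (4.76%, 0.993 to 13.3%) and C-type lectin genes named clec- at 12 of 240 (5%, 2.61 to 8.57%). The interval of the lectin genes, a family of similar size with 86 members on V, ended below that of the receptor genes and below the share of all genes, while the hlh- and ceh- intervals took in the latter. No test of a difference between families was made. The 6 genes that the definition left out had 4 bound members (66.7%, 22.3 to 95.7%). Their promoter summits were nhr-68 at 1445 (rank 1), nhr-114 at 494 (rank 116), nhr-49 at 227 and nhr-80 at 119. The site of nhr-68 thus stood above that of nhr-35, and the site of nhr-114 above that of nhr-1.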

How the data were processed

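The deposited files were narrowPeak lists for each of 2 replicates, for the pooled replicates and for the IDR-thresholded set, on assembly ce11 per the file listings. The signal value of each peak and the −log10 q-value were deposited by the authors. The signal ranked peaks within its list, and the −log10 column served only to order ties. Which peak caller and aligner were used, how the signal is scaled and which strain served as control is not given in the sources used here. Peak ends lay within the WBcel235 chromosome lengths, and gene models came from Ensembl release 115. Summits were read 1-based.

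Hexamers were looked up on either strand in the 201 bp centred on a summit and in equal windows 500 bp to each side. Intervals are exact Clopper-Pearson intervals at 95%. Summits within 100 bp were matched between replicates. Uniqueness is the share of 36-base words found once in the genome. For a gene it was read in the promoter window of the most upstream start, and for a peak in the 201 bp centred on the summit. The matching code was tested on simulated data. With 1 group no test between samples was possible.

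The genes and lists were chosen with earlier results of these data known. Genes were named by rule: the 15 strongest, all 11 conserved members, bound members of the role list, bound members in clusters or with a shared summit, the 3 lowest, the 5 strongest below the threshold and 5 receptor genes outside the naming scheme. Others named, the tRNA distances, uniqueness and the short sites were added after values were seen. The sequence at 1 of the strongest sites is not reported here. The work was done in Python 3.11.15 with pandas 2.3.3, scipy 1.17.1, matplotlib 3.10.9 and numpy 2.4.6.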

Additional observations from a re-analysis of the deposited data

How the results depend on the processing

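The number of bound receptor genes moved with the number of peaks admitted, as the construction of those settings makes it. In the stronger part of the IDR list 23 genes were bound, with 7.32% of those on V and 2.70% of those in clusters. With the first 7870 peaks of the pooled list these were 68, 22% and 18.2%. With 1 replicate left out the count was 42 to 45, the share on V 14 to 14.6%, that in clusters 9.46% either way and that of peaks with CACGTG 21.3 to 24.5%. The other settings kept these results within the interval of the reported value or within 1.5 times the reported count. Restricting to unique promoter windows and to single-start genes were settings chosen after the data were seen. No paired analysis was possible because there was 1 group. Depth was not available, so weak sites below the threshold cannot be told apart from absent ones.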
